A study of Mus musculus with 6 samples.

Results

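Collagens are proteins of 3 chains wound into a triple helix, and each chain is encoded by a gene of its own. Fibrillar collagens form the rope-like fibrils of the interstitium between tubules and accumulate in scarred kidneys. Type IV collagen is the sheet-forming collagen of basement membranes, with one network made in vessels, tubules and mesangium and another in the filtration barrier of the glomerulus. Type VI collagen forms beaded filaments at the border between cells and matrix.

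The collagen genes were all rows of the deposited expression table that are protein-coding and carry a name of the form Col, a number, a and a number. The rule found 31 genes among 17550 rows, of which 13637 are protein-coding. They comprise 8 fibrillar genes, 8 basement membrane genes (types IV, XV and XVIII), 4 type VI genes and 11 genes of other types. A list of 44 mouse collagen names was compared with the table. The 13 names without a row, among them Col2a1, Col11a1, Col6a4, Col6a5, Col13a1 and Col17a1, were not analysed here. All 31 genes had a mean of at least 10 and were tested, and 30 of them reached 24.8, the lowest maximum of any gene in the table, in both genotypes. The exception was Col19a1, which reached that level only in Control libraries, so its place in the table depended on the group where it is high.

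The samples were kidneys, perfused with saline, from mice labelled Control (3 libraries) and KC-Tie2 (3 libraries). KC-Tie2 is a psoriasis model driven by extra Tie2, a receptor tyrosine kinase, in keratinocytes, the cells to which the transgene is directed. Whether the transgene was also expressed in these kidneys was not tested. The labels say no more of the Control genotype, which the authors' deposited table heads WT, and name neither sex, strain nor age. They do not state that each library came from a separate mouse, and the p-values reflect only how much these libraries vary, which may be technical. RNA was poly(A)-selected. Values are normalized counts, that is, estimated counts divided by 1 factor per library, and sums over all genes were 23647811 to 25495455. Estimated depth was 18840167 to 29513690 counts per library. Tek, the endogenous Tie2 gene, lay between 989 and 1081 in Control libraries and between 933 and 976 in the KC-Tie2 libraries, and did not pass the test (limma adjusted p = 0.361). Of 7 keratinocyte markers, Krt5, Krt10 and Flg were in the table and summed to 195 to 312 in Control and 147 to 210 in KC-Tie2, and Krt14, Krt1, Dsg3 and Lor were not analysed here. The podocyte gene Nphs1 was at 936 or more in every library. In a bulk sample, fewer cells of a type and less RNA per cell cannot be told apart.

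The genotypes were compared to see how kidney collagen transcripts stand in mice with this skin disease. Among the 31 collagen genes, 2 fell in KC-Tie2 kidneys and none rose at a limma adjusted p under 0.05. The genes that fell were Col6a6, which encodes one of the additional long chains of type VI collagen, and Col19a1, which encodes a collagen that associates with fibrils. The abundant interstitial collagens Col1a1, Col1a2 and Col3a1 had nearly equal means in both genotypes, and the basement membrane genes Col18a1, Col4a1 and Col4a2 were 1.14-fold to 1.3-fold higher without passing the test. Over all 17539 genes tested, 1.69% were called, 0.838% as lower and 0.855% as higher, and 6.45% of the collagen genes were called, all lower. Nothing is read from that share, since Col19a1 reached the lowest maximum of the table in Control only. Of the 30 genes that reached it in both genotypes, Col6a6 alone was called. The 3 KC-Tie2 libraries lay wholly above the 3 Control libraries at 4 collagen genes (12.9%) and wholly below at 3 (9.68%), where the background over all tested genes was 9.96% above and 10% below. These shares are near the background, and Col19a1 is among the 3 below. An unadjusted p under 0.05 (limma) was found at 9 of 31 collagen genes (29.0%), Col19a1 among them, and at 15.3% of all genes. Of the log2 fold changes, 21 of 31 were above 0 against 50.3% of all. The median log2 fold change of the collagen genes was 0.051 and that of all genes tested 0.0012.

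**Figure D1:**
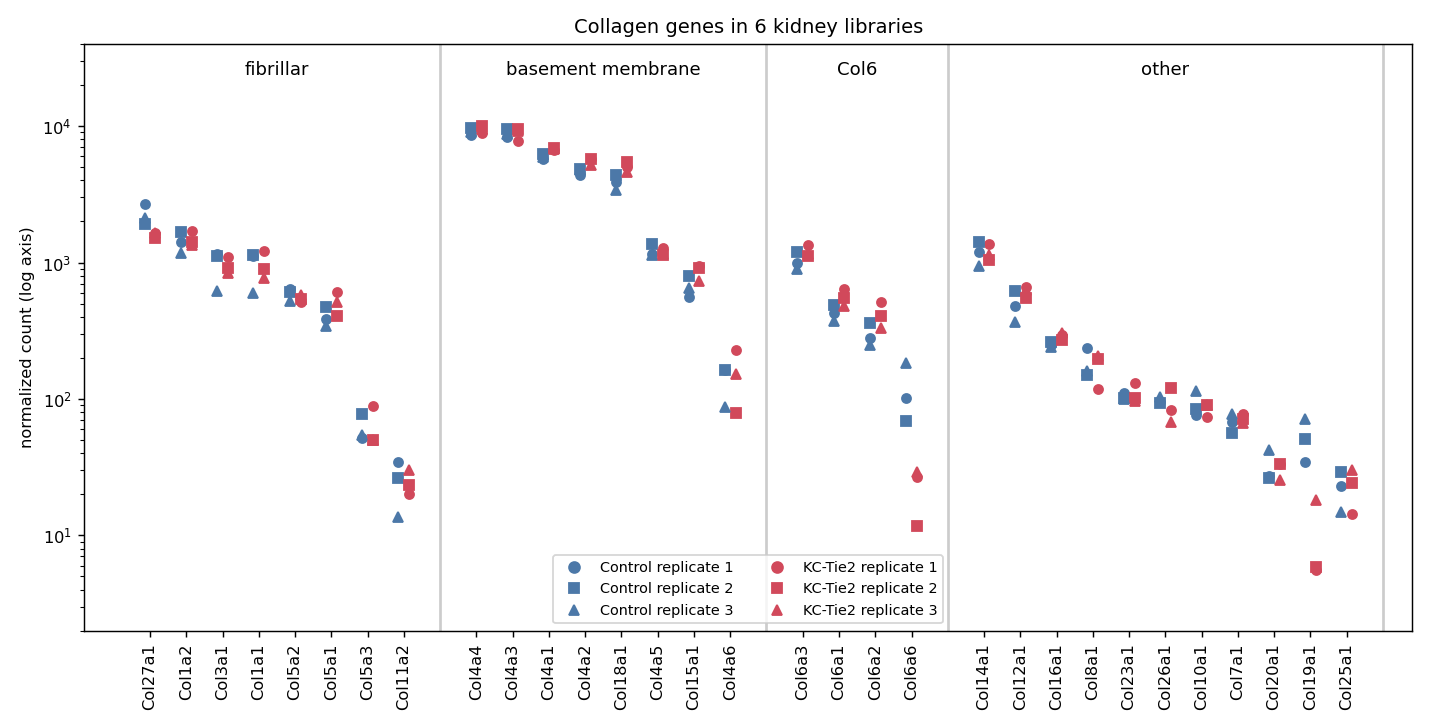
Normalized count (log axis) of the 31 collagen genes in each of the 6 libraries, grouped by collagen type. Colours mark the genotype and shapes the replicate number, and the KC-Tie2 points of Col6a6 and Col19a1 lie below all their Control points.

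Both genes that fell are weakly expressed. Col6a6 (ENSMUSG00000043719, chromosome 9, 105565008 to 105705359, minus strand, in the coordinates of the deposited table) was at 102, 68.5 and 183 in Control replicates 1 to 3 and at 26.6, 11.7 and 29.0 in KC-Tie2 replicates 1 to 3. All KC-Tie2 libraries lay below all Control libraries, and Control replicate 3 was the highest by a wide margin. Before scaling these values were 97, 83 and 135 estimated counts in Control and 24, 14 and 32 in KC-Tie2. The log2 fold change was -2.32 ± 0.43 (SE), a 5-fold difference (limma adjusted p = 0.0375).

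Col19a1 (ENSMUSG00000026141, chromosome 1, 24300971 to 24626553, minus strand) was at 34.7, 51.2 and 71.7 in Control and at 5.55, 5.84 and 18.1 in KC-Tie2. Those values correspond to 33, 62 and 53 against 5, 7 and 20 estimated counts. The groups did not overlap, and KC-Tie2 replicate 3 was more than 3 times the other KC-Tie2 libraries. The log2 fold change was -2.43 ± 0.47 (limma adjusted p = 0.0292), a 5.41-fold difference. A gene that reaches the lowest maximum of the table in 1 genotype only is selected for a difference, so the test of Col19a1 is given as a description. With 1 library left out, the log2 fold change stayed between -2.65 and -1.93 for Col6a6 and between -2.94 and -2.17 for Col19a1. Both calls were lost when Control replicate 1 or 3, or KC-Tie2 replicate 1 or 2, was left out (limma adjusted p = 0.084 to 0.145 for Col6a6 and 0.0858 to 0.169 for Col19a1). Without Control replicate 1, Control replicate 3, KC-Tie2 replicate 1 and KC-Tie2 replicate 2 in turn, 0 collagen genes were called, beside 0.291%, 0.308%, 0.394% and 0.274% of all genes. Without Control replicate 2 there were 6, beside 3.02%, and without KC-Tie2 replicate 3 there were 3, beside 3.89%. Quantile normalization gave 2, beside 1.98% of all genes, voom weights 1, beside 1.59%, and a replicate block 4, beside 3.31%. With voom weights Col6a6 had an adjusted p of 0.0817 (limma), within a range of 0.000527 to 0.145 over its alternatives. The authors' deposited table gives ratios of 0.191 for Col6a6 and 0.19 for Col19a1, with step-up FDR values of 4.48e-07 and 0.000196. A step-up FDR under 0.05 is given in the authors' deposited table to 4 of the 31 collagen genes (12.9%), beside 3.91% of all its genes. By direction, the authors' deposited table has 1 of them higher, Col18a1, beside 1.83% of all genes, and 3 lower, Col27a1 being the third, beside 2.08%. Col19a1, which reached the lowest maximum of the table in Control only, is among the 3 lower, so nothing is read from these shares. The 9 macrophage markers summed to 3827 to 5004 in Control and 5408 to 7846 in KC-Tie2. Of them, 5 had all KC-Tie2 libraries above all Control libraries, beside 9.96% of all genes. C1qa, C1qb and C1qc rose, beside 0.855% of all genes higher. Csf1r (means 1306 and 1345) and Cd68 (40.4 and 47.6) were among those that overlapped. Cd74 alone was at 1910 to 2640 in Control and 2823 to 4729 in KC-Tie2. Of 7 chondrocyte markers, only Sox9 (21.4 and 31.9) and Comp (9.96 and 35.1) were in the table. They were low, were not called, and summed to 24.4 to 36.8 and 47.2 to 81.1. The other chondrocyte markers were not analysed here. The part of macrophages, and of cells with Sox9 or Comp, in the values of Col6a6 and Col19a1 was not tested.

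The sequences upstream of the start sites of these genes are shown because these were the collagen genes that fell. They are the 250 bases before the RefSeq start on the build GRCm38.p6, which differs from the build of the expression table, and are written 5′ to 3′ on the gene's strand. Capitals mark matches to 5 motifs, searched on both strands. TATAAA stood for the box that positions the start and CCAAT for the box bound by NF-Y. GGGCGG stood for the GC box of Sp1, TTCNNNGAA for the palindrome that STAT factors bind, and TGANTCA for the site of AP-1, with N for any base.
Col6a6 upstream, chr9:105828086-105828335, minus strand: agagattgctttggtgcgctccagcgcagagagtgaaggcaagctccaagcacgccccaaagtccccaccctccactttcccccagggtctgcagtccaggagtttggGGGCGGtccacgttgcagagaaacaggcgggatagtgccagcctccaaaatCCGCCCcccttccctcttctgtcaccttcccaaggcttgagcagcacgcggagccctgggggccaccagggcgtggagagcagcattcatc
Col19a1 upstream, chr1:24587438-24587687, minus strand: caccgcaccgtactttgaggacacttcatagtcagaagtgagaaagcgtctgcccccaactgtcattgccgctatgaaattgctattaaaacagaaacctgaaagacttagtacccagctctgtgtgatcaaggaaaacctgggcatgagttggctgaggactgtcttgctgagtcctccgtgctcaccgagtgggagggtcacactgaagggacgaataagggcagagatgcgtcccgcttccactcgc
The Col6a6 stretch holds 2 GC boxes on opposite strands and the Col19a1 stretch none of the 5 motifs. The G and C content was 62.4% for Col6a6 and 52% for Col19a1, and the median of all 32817 promoters was 52.4%. The RefSeq table held promoters for 25 of the 31 collagen genes, 27 in all, with none for Col12a1, Col14a1, Col1a1, Col26a1, Col4a3 and Col5a2. A GC box was present in 63.0% of the collagen promoters and in 32.7% of all promoters. A TATA box was present in 11.1% against 12.4%, namely upstream of Col3a1, Col10a1 and Col11a2, and a CCAAT box in 33.3% against 33.8%. The AP-1 letters occurred upstream of Col6a1 alone among them (3.7% against 6.75%), and the STAT letters in none against 7.01% of all. A match describes the letters of these windows, and the absence of one says only that the letters are not in the window.

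The 3 classical chains of type VI collagen had estimates above 0, and none of them was called. Col6a1, one of the constant chains of the type VI filament, was at 423, 492 and 373 in Control and 636, 546 and 479 in KC-Tie2 kidneys. KC-Tie2 replicate 3 lay within the Control range, so the groups overlapped (1.29-fold, 95% interval 1.06 to 1.56, limma adjusted p = 0.188). Col6a2, its constant partner, was at 278, 363 and 250 in Control and 517, 407 and 329 in KC-Tie2 (1.4-fold, 1.05 to 1.87, limma adjusted p = 0.254). Col6a3, the large chain that completes the classical trimer, had means of 1033 ± 156 and 1203 ± 121 (SD, n = 3 per genotype; limma adjusted p = 0.372). Within each library the value of Col6a6 was 0.057 to 0.204 times that of Col6a3 in Control and 0.0105 to 0.025 times in KC-Tie2, with no overlap, whereas Col6a1 over Col6a2 stayed between 1.23 and 1.52 in all 6. These are ratios of counts not divided by length. Summed over the 4 genes, type VI collagen was at 1804, 2127 and 1703 in Control and 2520, 2073 and 1998 in KC-Tie2 libraries. Fibroblast markers (10 of 12 in the table) summed to 3327 to 4414 and 3668 to 4982. Of these markers, 6 had a log2 fold change above 0, beside 50.3% of all genes. Adipocyte markers (6 of 7 in the table, none called) summed to 3466, 665 and 498 in Control and 2563, 495 and 521 in KC-Tie2. They were highest in replicate 1 of each genotype. The part of fibroblasts, of adipocytes, and of the macrophages whose sums are given above, in the type VI values was not tested.

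**Figure D2:**
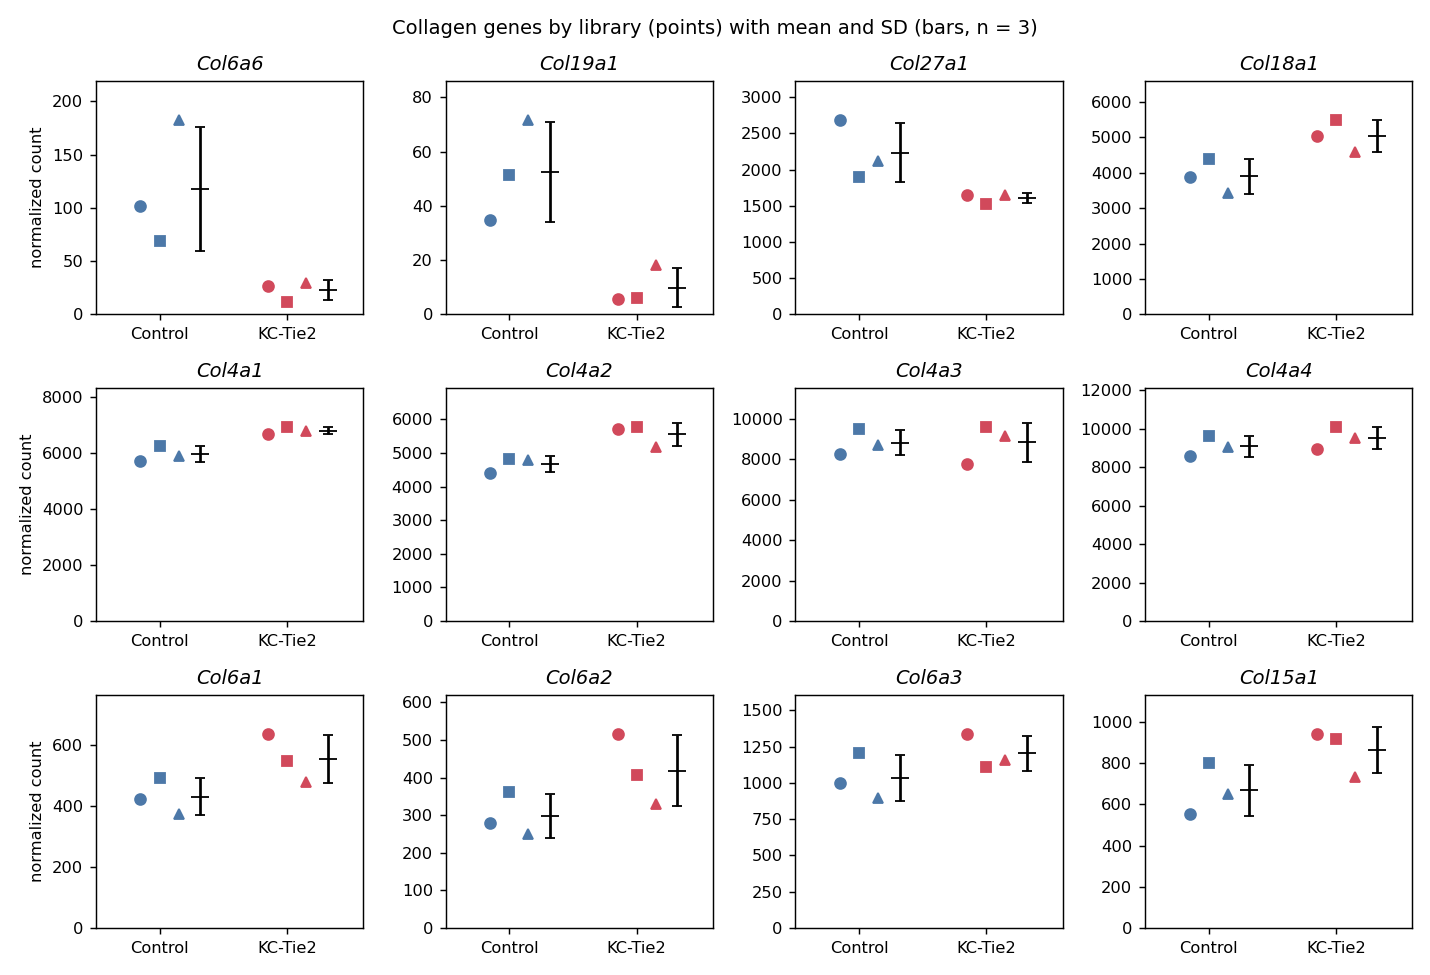
Normalized count per library of 12 collagen genes, on axes that start at 0. Points are libraries (circle, square and triangle for replicates 1, 2 and 3), and bars give the mean and SD of 3 libraries. Col6a6, Col19a1 and Col27a1 do not overlap downward and Col18a1, Col4a1 and Col4a2 upward, while Col4a3 and Col4a4 overlap.

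Of the 8 basement membrane genes, none was called over all genes. An unadjusted p under 0.05 by limma was found at 4, all 4 higher, beside 15.3% of all genes in either direction. A log2 fold change above 0 was found at 7 (median 0.14), beside 50.3% of all genes. Col18a1, whose product carries the endostatin fragment, was at 3869, 4400 and 3420 in Control and 5036, 5492 and 4578 in KC-Tie2. All KC-Tie2 libraries were above all Control libraries by a narrow margin (1.3-fold, 95% interval 1.12 to 1.5, limma adjusted p = 0.09). It was called when Control replicate 2 (limma adjusted p = 0.0258) or KC-Tie2 replicate 3 (0.0476) was left out, and its adjusted p ranged from 0.017 to 0.336 over its alternatives. The authors' deposited table gives Col18a1 a ratio of 1.29 and a step-up FDR of 0.0174. Col15a1, the related collagen of capillary basement membranes, was at 555, 803 and 649 against 945, 916 and 736, and overlapped (1.3-fold, 1.04 to 1.63, limma adjusted p = 0.254). It was called without Control replicate 2 (limma adjusted p = 0.0483), within a range of 0.0483 to 0.557 over its alternatives.

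The type IV genes lie head to head in 3 pairs, which are described in turn, and no test between pairs was made. Col4a1 and Col4a2, which encode the chains found in nearly all basement membranes, share 22 bases at their starts on chromosome 8 (Col4a1 11248423 to 11362826 on the minus strand, Col4a2 11362805 to 11499287 on the plus strand). Col4a1 was at 5734, 6267 and 5903 in Control and 6677, 6941 and 6776 in KC-Tie2 (1.14-fold, 95% interval 1.03 to 1.26, limma adjusted p = 0.202). Col4a2 was at 4411, 4834 and 4803 in Control and 5728, 5783 and 5169 in KC-Tie2 (1.19-fold, 1.06 to 1.33, limma adjusted p = 0.128). Neither gene overlapped between genotypes, and the ratio of Col4a1 to Col4a2 stayed between 1.17 and 1.31 in all libraries. Col4a3 and Col4a4, which encode chains of the mature glomerular basement membrane and lie 71 bases apart on chromosome 1, overlapped between genotypes. Col4a3 had 8811 ± 607 in Control and 8842 ± 965 in KC-Tie2 (fold interval 0.872 to 1.15, limma adjusted p = 0.997), and Col4a4 had 9076 ± 541 and 9510 ± 571 (0.932 to 1.18, 0.754). Their ratio was between 0.867 and 0.984, lowest in KC-Tie2 replicate 1. The ratio of Col4a1 to Col4a3, a pair chosen after its values were seen, was 0.662 to 0.693 in Control and 0.723 to 0.861 in KC-Tie2, without overlap. No test of this ratio was made.

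Col4a5, the X-linked partner of Col4a3 and Col4a4, had 1221 ± 134 in Control and 1194 ± 75.5 in KC-Tie2 (fold interval 0.86 to 1.12). Its neighbour Col4a6, 1308 bases away on the opposite strand, varied far more: 162, 162 and 86.6 in Control and 229, 79.2 and 152 in KC-Tie2. Control replicate 3 and KC-Tie2 replicate 2 were the low libraries, and the 95% interval of the fold, 0.491 to 2.31, was the widest of the 31 on the log scale. Urothelium markers (6 of 7 in the table) summed to 402, 772 and 122 in Control and 473, 137 and 361 in KC-Tie2, with the same pair of libraries lowest. The part of urothelium in Col4a6 was not tested. Summed over the 8 basement membrane genes, the values were 32711, 36940 and 33731 in Control and 36602, 40050 and 37223 in KC-Tie2, and the groups overlapped. Endothelial markers summed to 15636 to 17443 in Control and 15545 to 17277 in KC-Tie2, and none of the 10 was called. Podocyte markers summed to 9779 to 11025 and 10806 to 14550, with all 8 above 0 on the log2 scale, beside 50.3% of all genes. Pericyte and mesangial markers summed to 5613 to 6281 and 6433 to 7929, which do not overlap, but without Ren1 (684, 636 and 970 against 1347, 3047 and 1345) the other 7 summed to 4643 to 5645 and 4882 to 5708, which overlap. This sum was chosen after the values were seen. Kcnj8 and Abcc9 of that list were lower at an unadjusted p under 0.05 (limma), and neither was called. The part of these cell types in the basement membrane values was not tested.

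Fibrillar genes were spread around equality: of 8, none was called and the median log2 fold change was 0.039. Only 1 had an unadjusted p under 0.05 by limma, beside 15.3% of all genes, and 6 were above 0, beside 50.3%. Col1a1, a chain of type I collagen, was at 1109, 1128 and 595 in Control and 1206, 893 and 769 in KC-Tie2 (fold interval 0.566 to 1.9, limma adjusted p = 0.967). Col3a1, which encodes type III collagen and is made with type I, was at 1149, 1115 and 622 against 1093, 914 and 845 (0.623 to 1.67, 0.979). Control replicate 3 was the lowest library for both, and the ratio of Col1a1 to Col3a1 stayed between 0.911 and 1.1. Col1a2, the partner of Col1a1, had a tighter interval of 0.843 to 1.31 around 1420 ± 250 and 1485 ± 190 (limma adjusted p = 0.867). Without Control replicate 3 the log2 fold changes of Col1a1 and Col3a1 were -0.25 and -0.26, and neither was called. With 3 libraries a genotype, changes within these intervals are not excluded. Markers of myofibroblasts and smooth muscle summed to 2197, 2332 and 1395 in Control and 2527, 1506 and 1788 in KC-Tie2, with Control replicate 3 again lowest, and their part in the spread of Col1a1 and Col3a1 was not tested.

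**Figure D3:**
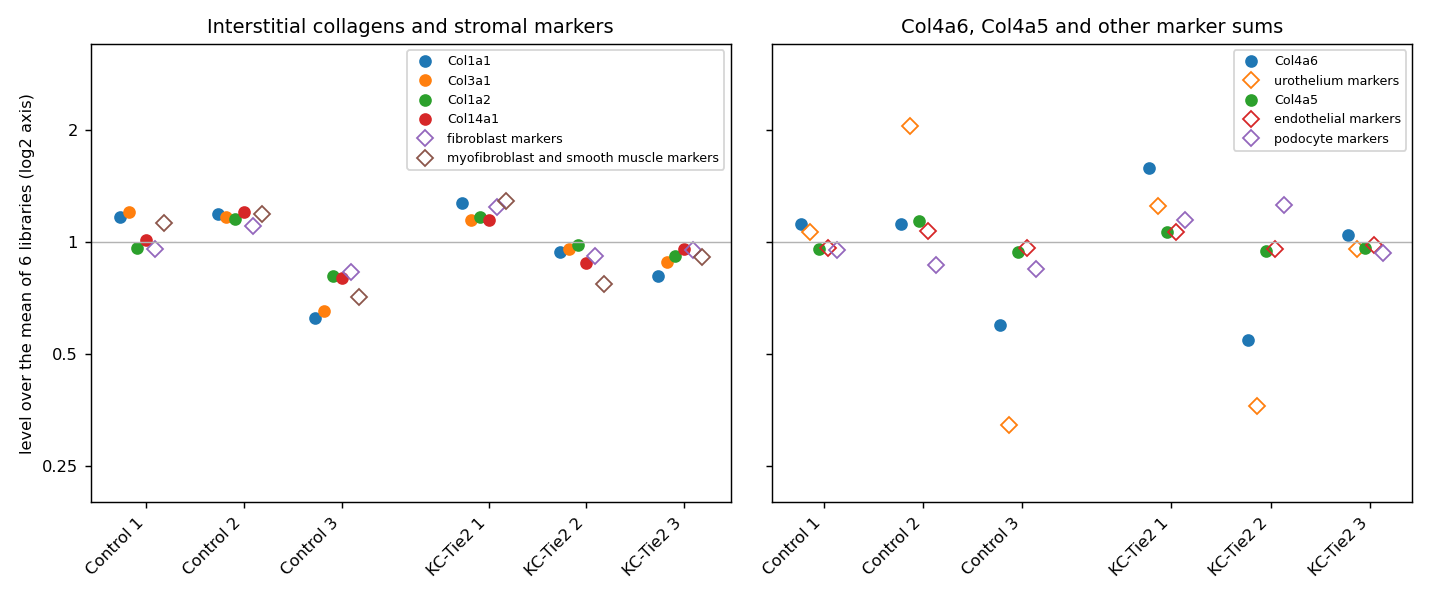
Level in each library divided by the mean of the 6 libraries (log2 axis), for 4 interstitial collagens with 2 stromal marker sums at left and for Col4a6 and Col4a5 with 3 marker sums at right. Filled circles are genes and open diamonds marker sums. Control replicate 3 is the low library at left, and it and KC-Tie2 replicate 2 are low for both Col4a6 and urothelium markers at right.

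Col27a1, a fibrillar collagen best known from cartilage, and Col5a2 were the fibrillar genes with an estimate below 0. Col27a1 was at 2686, 1903 and 2117 in Control and 1645, 1522 and 1651 in KC-Tie2 kidneys. All KC-Tie2 libraries were below all Control libraries, and they differed little among themselves (SD 72.9 against 405). The log2 fold change was -0.46 ± 0.11 and did not pass the test (limma adjusted p = 0.0853). It passed without Control replicate 2 (limma adjusted p = 0.0158), within a range of 0.013 to 0.304 over its alternatives, and the authors' deposited table gives it a step-up FDR of 0.00387 at a ratio of 0.719. Col5a1 and Col5a2, whose type V chains start and limit fibrils, had fold intervals of 0.968 to 1.63 and 0.798 to 1.07 and means of 402 ± 66.3 and 588 ± 63.2 in Control against 508 ± 105 and 542 ± 31.8 in KC-Tie2. Col5a3 (61.1 ± 14.4 and 62.9 ± 22.4) and Col11a2 (24.9 ± 10.7 and 24.4 ± 5.07) were low, with intervals of 0.67 to 1.52 and 0.572 to 1.88. Summed over the 8 genes, fibrillar collagen was at 7462, 7008 and 5443 in Control and 6876, 5766 and 5764 in KC-Tie2 libraries.

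**Figure D4:**
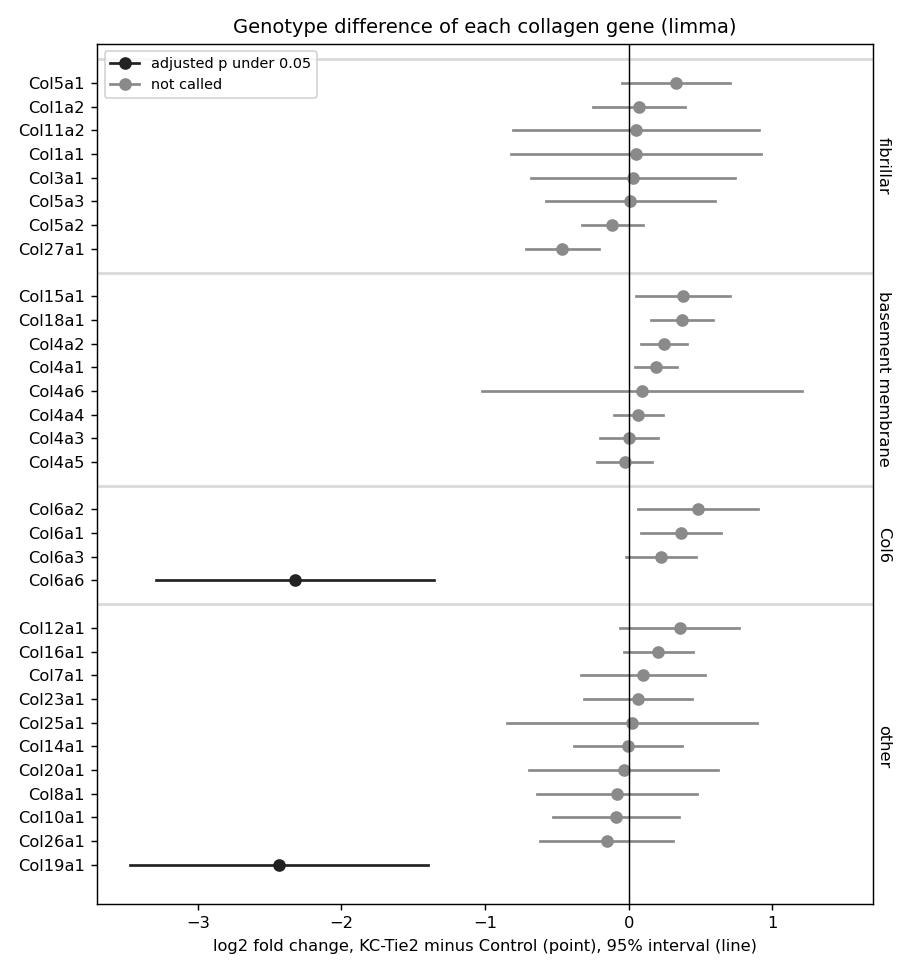
Log2 fold change (KC-Tie2 minus Control, limma) of each collagen gene with its 95% interval, not adjusted for the number of genes, by collagen type. Col6a6 and Col19a1, in dark, are the genes with an adjusted p under 0.05, and 29 of the 31 estimates lie within 0.5 of 0.

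Among the 11 genes of other types, Col19a1 fell and the remaining 10 were not called. Of the fibril-associated genes, Col14a1 had 1191 ± 237 and 1176 ± 162, and Col12a1 had 488 ± 127 and 612 ± 55.6 (fold interval 0.961 to 1.7, limma adjusted p = 0.403). Col12a1 was called without Control replicate 2 (limma adjusted p = 0.049), within a range of 0.049 to 0.695 over its alternatives. Col16a1 was at 247, 263 and 239 in Control and 293, 268 and 305 in KC-Tie2, which do not overlap (1.15-fold, 0.978 to 1.36, limma adjusted p = 0.405). Col20a1 had 31.9 ± 8.71 and 30.7 ± 4.57. The transmembrane collagens Col23a1 (104 ± 5.7 and 110 ± 18.7) and Col25a1 (22.3 ± 7.05 and 22.8 ± 7.84) overlapped. So did Col7a1, the anchoring fibril collagen of skin (67.2 ± 10.5 and 71.6 ± 5.78), the network-forming Col8a1 (183 ± 47.8 and 174 ± 48.2) and Col10a1 (91.2 ± 19.9 and 84.7 ± 9.88), and Col26a1 (98 ± 5.42 and 90.5 ± 26.7). The fold intervals of these 7 genes all included 1 and lay between 0.556 and 1.86. Summed over the 11 genes, the values were 2598, 2898 and 2241 in Control and 2843, 2502 and 2668 in KC-Tie2.

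Some collagen genes overlap other transcripts, and the sources used here do not give whether counting used strand. Col10a1 lies within Nt5dc1 on the opposite strand over 7105 bases, a gene with means of 623 in Control and 514 in KC-Tie2. Col18a1 shares 8825 bases with Slc19a1 on the opposite strand, whose means were 1859 and 1882. Col4a3 shares 30132 bases with the antisense lncRNA C430014B12Rik (67.2 and 91.5), and Col20a1 shares 741 bases with the lncRNA 9230112E08Rik on its own strand (209 and 202). Col5a2 shares 7217 bases with Gm38211 on its own strand (23.4 and 23.7). For these genes the share of reads counted for each is uncertain.

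Levels of different genes can be compared per length. Divided by the length of the longest protein-coding transcript in GENCODE M21, in kb, the mean levels of both genotypes ran from 1032 for Col4a3 to 3.37 for Col25a1, a 306-fold range. The 5 highest were all basement membrane genes: Col4a3, Col4a1 (965), Col4a4 (919), Col18a1 (798) and Col4a2 (794). Next came Col1a2 at 272 and Col27a1 at 252, above Col3a1 at 172 and Col1a1 at 160. The order was nearly the same in both genotypes: 24 of 31 genes moved by at most 1 place, and the largest move, 5 places, was that of Col6a6 and of Col19a1. Per kb, Col6a6 went from 13.4 to 2.56 and Col19a1 from 12.3 to 2.31.

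**Figure D5:**
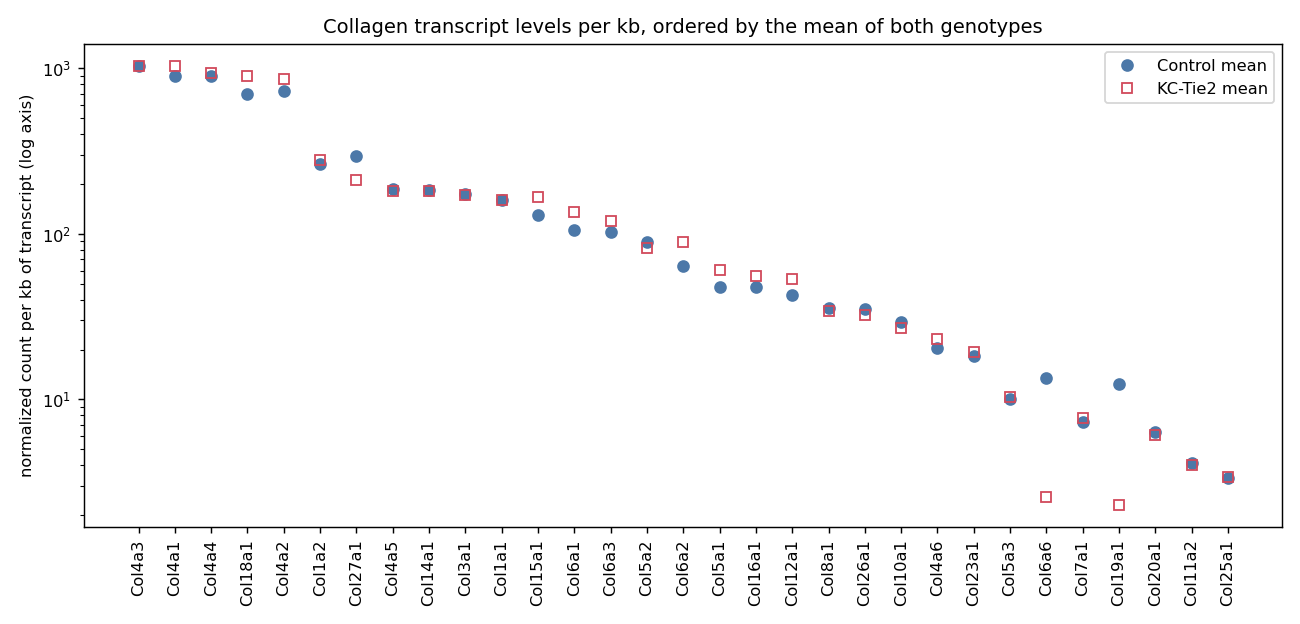
Mean normalized count per kb of transcript (log axis) of the 31 collagen genes in Control (filled circles) and KC-Tie2 (open squares), ordered by the mean of both. The markers of most genes nearly coincide, and those of Col6a6 and Col19a1 are far apart.

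Collagen chains are modified, cut, cross-linked and broken down by other proteins, and 90 such genes of 5 lists were tested. Of these, 3 rose and 1 fell, beside 1.69% of all genes called. Pcolce, which enhances the cleavage of procollagen by its proteinase, was at 1333, 1508 and 1310 in Control and 2110, 2314 and 1820 in KC-Tie2 (log2 fold change 0.58 ± 0.09, limma adjusted p = 0.0138). Fn1, which encodes fibronectin, on which collagen fibrils are assembled, was at 1283, 1525 and 1316 against 2155, 1949 and 1810 (0.52 ± 0.09, limma adjusted p = 0.0159). All KC-Tie2 libraries exceeded all Control libraries at both. They were the 2 genes that rose among 21 for propeptide cleavage, cross-linking and assembly, a list with a median log2 fold change of 0.22 against 0.0012 for all genes. Of this list, 14 genes had a log2 fold change above 0 and 7 below, where 50.3% of all genes were above 0. Sparc, a collagen-binding protein of the same list, had 2127 ± 209 and 2626 ± 295 (limma adjusted p = 0.156). Pxdn, also of this list, went the other way (947 ± 45.6 and 802 ± 11.9, limma adjusted p = 0.127), with all KC-Tie2 libraries below all Control libraries. Sparc and Pxdn were chosen after their values were seen.

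Timp3, an inhibitor of matrix proteinases bound to the matrix, was at 52132, 44078 and 50317 in Control and 32939, 31791 and 40079 in KC-Tie2, with no overlap. It fell, with a log2 fold change of -0.49 ± 0.10 (limma adjusted p = 0.0409), and was the only called gene of 13 for collagen breakdown and its inhibitors (median 0.014). Tgfbi, a matrix protein induced by TGF-beta, was at 212, 221 and 173 against 427, 347 and 285 and rose (0.79 ± 0.16, limma adjusted p = 0.0313). It was the only called gene of 22 in the TGF-beta list, whose median log2 fold change was -0.021. The TGF-beta targets Ccn2 and Acta2 were in that list and not called, and they too were chosen after their values were seen.

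None of 22 genes for hydroxylation, glycosylation and folding of the chains was called. A limma unadjusted p under 0.05 was found at 5 of them, beside 15.3% of all genes. The smallest p-values were those of Mia2, which helps procollagen leave the endoplasmic reticulum (5183 ± 322 and 4201 ± 265, limma adjusted p = 0.0747), and of the glycosyltransferase Colgalt1 (781 ± 32.4 and 954 ± 154, 0.222). None of 12 collagen receptors was called either. A limma unadjusted p under 0.05 was found at 5, all higher, beside 15.3% of all genes in either direction. Of the 12, 11 were above 0, beside 50.3% of all genes. The smallest p-values there were those of Lair1, an inhibitory receptor of leukocytes (38.8 ± 5.19 and 68 ± 14.1, limma adjusted p = 0.132), and of Antxr1 (179 ± 27 and 246 ± 24.5, 0.142). The calls of Pcolce, Fn1, Tgfbi and Timp3 were lost when Control replicate 1 or 3, or KC-Tie2 replicate 1 or 2, was left out, with adjusted p between 0.0675 and 0.213 (limma). Tgfbi was also not called with voom weights (limma adjusted p = 0.0625), and Timp3 not with a mean of at least 100 (0.0502) or without robust moderation (0.0647). None of the 90 genes was called in the 4 fits that left out those libraries, in which 0.274% to 0.394% of all genes were called. When Control replicate 2 was left out 7 were called, beside 3.02% of all genes, and when KC-Tie2 replicate 3 was left out 9, beside 3.89%. The macrophage sums given above did not overlap between genotypes either, and their part in these 4 genes was not tested.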

How the data were processed

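Kidney RNA of 3 Control and 3 KC-Tie2 samples was measured by bulk RNA-seq. The authors deposited normalized counts, a signal that is not whole-numbered, together with p-values, step-up FDR, ratios and fold changes of their own comparison. Partek 12.5.0, STAR, DESeq2 and the build mm39 are named, without role or order, per the submitters' processing notes. Depth and counts were estimated from the spacing of low values: 68.4% to 71.2% of the values under 60 in a library lay within 0.01 of a multiple of its step, too few for a count test, so the estimates only describe precision.

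Genes with a mean of at least 10 were tested on log2(value + 1), so fold changes of low genes are understated, with limma 3.58.1 in R 4.3.3 (trend and robust moderation, 4 residual degrees of freedom) and Benjamini-Hochberg adjustment over all 17539 genes. Scripts were tested on simulated data. Gene ends are the listed stop minus 1. The collagen genes and all lists were chosen with earlier results of these data known. Every collagen gene was named. Of each pathway list, up to 4 called genes with the largest changes were named, or, if it had no call, the 2 genes of smallest p, and exceptions are stated. Marker lists were given as sums, and only some of their genes were named, by no fixed rule. Genes with a like pattern were not named, because the genotypes separate and a pooled correlation was not given. The labels do not say whether libraries with the same replicate number belong together. Alternatives were other pseudocounts, filters, scalings (TMM, quantile), voom weights, moderation without the robust option, a replicate block, and leaving out each library.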

Additional observations from a re-analysis of the deposited data

How the results depend on the processing

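Which collagen genes were called depended on single libraries. Leaving out 1 library gave 0 to 6 collagen genes called and 48 to 682 of all genes (2 and 297 with all libraries). By class, leaving out 1 library gave 0 to 1 fibrillar, 0 to 2 basement membrane, 0 to 1 type VI and 0 to 2 other genes, and 0 to 9 of the 90 pathway genes. With a mean of at least 100, where Col6a6 and Col19a1 are not tested, 0 collagen genes were called (type VI 0, other 0), and with voom weights 1, Col19a1 (type VI 0). Whether the replicate numbers pair the samples is not given by the labels. Correlations of deviations from the group means were 0.178, -0.096 and 0.017 for the same number. For different numbers they ran from -0.283 to 0.26, so they do not settle it. With the replicate numbers as a block, 581 genes were called, 4 of them collagen genes, adding 1 fibrillar (Col27a1, limma adjusted p = 0.013) and 1 basement membrane gene (Col18a1, 0.017).

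The estimates of 16 genes that were not called changed sign in some alternatives, and the cause was not tested. Leaving out 1 library, log2 fold changes ranged from -0.21 to 0.077 for Col10a1, -0.32 to 0.33 for Col11a2, -0.16 to 0.13 for Col14a1, -0.25 to 0.21 for Col1a1, -0.055 to 0.20 for Col1a2, -0.15 to 0.17 for Col20a1, -0.067 to 0.15 for Col23a1, -0.23 to 0.31 for Col25a1, -0.37 to 0.031 for Col26a1, -0.26 to 0.18 for Col3a1, -0.061 to 0.093 for Col4a3, -0.081 to 0.060 for Col4a5, -0.26 to 0.50 for Col4a6, -0.26 to 0.19 for Col5a3, -0.022 to 0.20 for Col7a1 and -0.22 to 0.17 for Col8a1. Voom gave 0.027 for Col14a1 and 0.0058 for Col4a5, and quantile normalization -0.047 for Col25a1. The fold of each class sum was recomputed under TMM, quantile normalization and leaving out 1 library, as alternatives chosen after seeing the data. It moved by less than 1 SD of a ratio between single libraries. That SD is wider than the SD of a fold of means, so it does not show that the folds are stable. Under quantile normalization the basement membrane sum of KC-Tie2 replicate 1 went from 36602 to 39301. The basement membrane fold went from 1.10 to 1.16, where the SD of a ratio between single libraries was 0.0884.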
